A study of Mus musculus with 4 samples.

Results

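Dynlt1a, Dynlt1b, Dynlt1c and Dynlt1f are near-identical copies of 1 gene on mouse chromosome 17, and they are described here by the ATAC-seq peaks that lie over them. The 4 genes were listed by name out of 21951 protein-coding genes of the GENCODE M21 annotation. They were selected on measured values of these same libraries, namely the KO against WT contrast of peak heights, so their KO and WT values are given as a description with no test. Every peak over a gene body or within 20 kb on either side of it was taken. This gave 8 of 63000 and 10 of 100088 peaks in WT replicates 1 and 2, and 11 of 82975 and 12 of 85418 peaks in KO replicates 1 and 2. Merged where they shared at least 1 bp, they made 14 of 122166 regions, of which 6 held a peak in all 4 libraries.

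ATAC-seq maps open chromatin with a transposase that inserts sequencing adapters where DNA is exposed. The libraries came from brain tumors formed by mG7080, a murine glioblastoma line, in host mice of the C57BL/6 strain that were WT or lacked Esm1 (KO). The product of Esm1 is Endocan, a secreted proteoglycan made by endothelial cells. Each group had 2 tumors and each tumor gave 1 library. The deletion lies in the host, the same cell line was injected into both groups and carries its own Esm1, and no age is given in the labels. The labels name tumor tissue, whereas the methods speak of freshly isolated tumor cells. The promoters of Olig2, Sox2, Pdgfra and Nes, markers of glioma and neural progenitor cells, held a peak in all 4 libraries, and that of Gfap, the fifth marker of this class, held one in KO replicate 2 only. Of 4 macrophage and microglia markers, 0 and 2 held a promoter peak in WT replicates 1 and 2 and 2 and 1 in KO replicates 1 and 2. Of 4 endothelial markers, 1 and 2 did in WT and 1 and 1 in KO. Neither of the 2 T cell markers, Cd8a and Cd3e, held one in any library. The part of other cell types in the values below was not tested.

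Dynlt1 proteins are light chains of the Tctex type in cytoplasmic dynein, the motor that carries cargo toward the minus ends of microtubules. They bind the intermediate chains of the motor and also have partners outside it. Gene copies that arise by segmental duplication keep nearly the same sequence, so that a short read from one copy can be placed on another. A duplicated block can also differ in copy number between genomes, and more copies bring more read ends both to an open site and to the DNA around it. A site that only opens further gains read ends mainly at the site.

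All coordinates are on GRCm38 (mm10), chromosome 17. Dynlt1a (ENSMUSG00000092074.2) spans 6306340 to 6317500 on the minus strand, and Dynlt1b (ENSMUSG00000096255.2) spans 6430112 to 6436296 on the plus strand. Dynlt1c (ENSMUSG00000000579.14) spans 6601671 to 6609774 on the plus strand, and Dynlt1f (ENSMUSG00000095677.2) spans 6646602 to 6655900 on the minus strand. The noncoding gene Gm26848, the protein-coding gene Tmem181a, which overlaps Dynlt1a, and the pseudogenes Tmem181b-ps and Tmem181c-ps also held peaks within these windows.

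The stretches upstream of the 4 transcript starts are printed because they show how little separates the copies. Each is read 5′ to 3′ on the strand of its gene. Capitals in Dynlt1b mark bases at which any other copy differs, and capitals in the other copies mark their substitutions against Dynlt1b.
Dynlt1b, chr17:6429932-6430071, plus strand: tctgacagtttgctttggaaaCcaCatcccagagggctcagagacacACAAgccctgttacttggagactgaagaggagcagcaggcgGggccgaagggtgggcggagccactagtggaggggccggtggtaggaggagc
Dynlt1f, chr17:6655941-6656080, minus strand: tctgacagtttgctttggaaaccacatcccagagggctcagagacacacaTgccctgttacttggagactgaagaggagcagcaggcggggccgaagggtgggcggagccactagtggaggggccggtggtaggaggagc
Dynlt1c, chr17:6601530-6601669, plus strand: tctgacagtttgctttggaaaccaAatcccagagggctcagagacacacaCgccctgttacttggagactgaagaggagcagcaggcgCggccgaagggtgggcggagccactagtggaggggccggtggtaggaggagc
Dynlt1a, chr17:6317541-6317676, minus strand: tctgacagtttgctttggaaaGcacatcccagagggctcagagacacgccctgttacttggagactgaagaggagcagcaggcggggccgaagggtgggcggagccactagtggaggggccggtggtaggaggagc

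Of the 140 bases of Dynlt1b, Dynlt1f had 1 substitution, Dynlt1c had 3, and Dynlt1a had 1 substitution and lacked 4 bases. The identity to Dynlt1b was thus 99.3%, 97.9% and 96.4%. The letters GGGCGG, the core of the GC box, occurred 1 time in each of the 4 stretches when both strands were searched. The same letters were found on either strand in the matching window of 23.4% of 32851 RefSeq promoters (GRCm38.p6), so they do not set these genes apart.

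The duplication was larger than the genes. Strings of 75 bases, the read length in the labels, were counted over the whole reference genome on both strands. In a block from 6220000 to 6729999, taken as the 10-kb bins around Dynlt1b in which fewer than 90% of such strings were found once, only 31.7% occurred 1 time in the genome and 39.0% occurred 3 times or more. In the rest of the scanned span, 95.1% occurred 1 time. The block held 28 regions, 13 of them with a peak in all 4 libraries, and all 4 windows lie in it. Regions at 6386915 to 6387302 and 6553776 to 6554198 contained no 75-base string that is found once. Each still held a peak in both KO libraries, and in neither WT library. The lists therefore include signal from reads that cannot be assigned to 1 copy by their own sequence, and a height at one copy may hold read ends of another. This limit applies to every value in the block.

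A height and a local background were recovered for each peak from the deposited fold and p-value. The height is the number of extended read ends stacked at the summit. The local background is the level that the peak caller set beside the peak, from the 10 kb around it or, where that is lower, from the genome as a whole. Both were divided by the genome background of the library, which was 4.41 and 6.85 read ends for WT replicates 1 and 2 and 6.03 and 6.71 read ends for KO replicates 1 and 2. Local background on this scale cannot fall below 1.00, and 62.2% to 70.1% of the peaks of a library lay above that floor. Over the 48089 regions with a peak in all 4 libraries, the median KO against WT ratio was 0.933 for height and 1.00 for local background, so a height ratio of 0.933 is the middle one on this scale.

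The Dynlt1b promoter peak (6429649 to 6430959, over the first exon) was the tallest of the members and the one that was higher in KO. Its height was 12.0 and 10.4 times in WT replicates 1 and 2, against 17.1 and 21.3 times in KO replicates 1 and 2. In read ends these were 53, 71, 103 and 143. Both KO libraries lay above both WT libraries, and the ratio of the means was 1.72.

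The local background around Dynlt1b moved with the peak. It was 1.73 and 2.15 times the genome background in WT replicates 1 and 2 and 3.36 and 4.16 times in KO replicates 1 and 2, a ratio of 1.94. The 10 kb around the summit held 382, 737, 1011 and 1396 read ends in the same order of libraries. Taking the read ends of the summit itself out of that count left a density of 1.52 and 1.98 times the genome background in WT against 3.08 and 3.81 times in KO, a ratio of 1.96. The shoulders of the peak, which is wider than the summit, stay in that density, and so do other peaks within the 10 kb. The peak from 6428901 to 6429350 was absent in WT replicate 1, 5.40 times in WT replicate 2 and 8.13 and 9.24 times in KO. The peak from 6434086 to 6434306 was called in KO replicate 1 only. Their part in the ratio was not tested. With both numerator and denominator raised, the deposited fold over local background did not separate the groups. It was 6.25 and 4.57 in WT and 4.90 and 4.98 in KO.

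**Figure D1:**
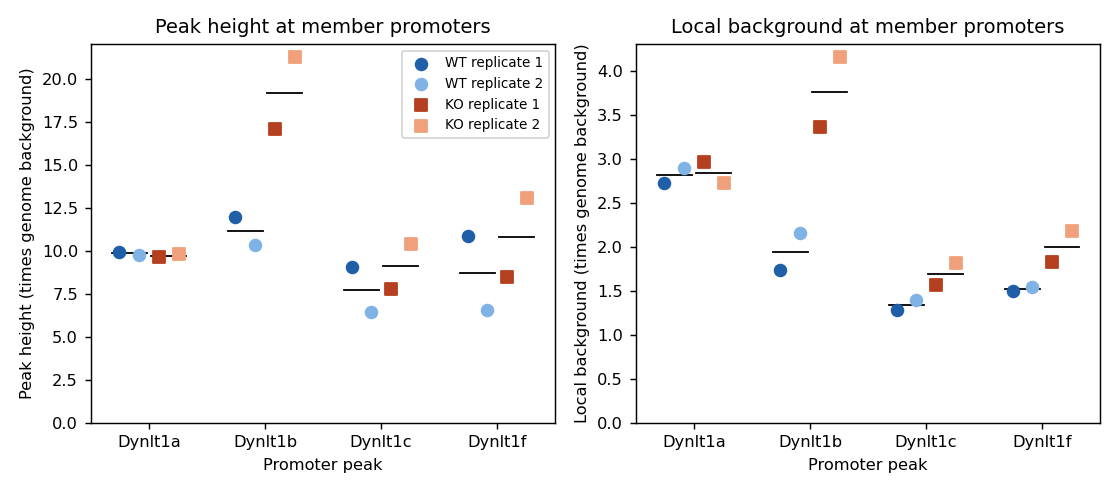
Peak height (left) and local background (right) of the promoter peaks of Dynlt1a, Dynlt1b, Dynlt1c and Dynlt1f, both in multiples of the genome background of each library. Points are single libraries (circles WT, squares KO) and black lines are group means. At Dynlt1b both KO libraries lie above both WT libraries in both panels, and at Dynlt1a the 4 heights lie between 9.63 and 9.97.

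Dynlt1a, the copy that differs most from Dynlt1b in the printed stretch, had 4 nearly equal values. The height of its promoter peak (6316955 to 6317817) was 9.97 and 9.78 times the genome background in WT replicates 1 and 2 and 9.63 and 9.83 times in KO replicates 1 and 2. Its local background was 2.73 and 2.90 times in WT and 2.96 and 2.72 times in KO. Neither quantity separated the groups, and the ratios of KO to WT were 0.985 and 1.01.

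Dynlt1c and Dynlt1f lay between these cases. The height of the Dynlt1c promoter peak (6601389 to 6602433) was 9.06 and 6.43 times the genome background in WT replicates 1 and 2, and 7.80 and 10.4 times in KO replicates 1 and 2. That of Dynlt1f (6655060 to 6656185) was 10.9 and 6.57 times in WT and 8.46 and 13.1 times in KO. For both genes the groups overlapped in height, since WT replicate 1 lay above KO replicate 1.

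Their local background did not overlap between the groups. Around Dynlt1c it was 1.28 and 1.40 times the genome background in WT against 1.57 and 1.82 times in KO, a ratio of 1.27. Around Dynlt1f it was 1.50 and 1.54 times in WT against 1.83 and 2.18 times in KO, a ratio of 1.32. KO replicate 2 was the highest of the 4 libraries in height and local background at Dynlt1b, Dynlt1c and Dynlt1f.

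Levels of different copies can be set against each other within a library, where depth and scaling drop out. The Dynlt1b peak had 1.20 and 1.06 times the height of the Dynlt1a peak in WT replicates 1 and 2, and 1.78 and 2.17 times in KO replicates 1 and 2. The local background at Dynlt1b was 0.635 and 0.742 times that at Dynlt1a in WT and 1.13 and 1.53 times in KO. The order of the backgrounds of the 2 copies was thus opposite in the 2 groups. For Dynlt1c against Dynlt1a the ratio of heights was 0.909 and 0.657 in WT and 0.810 and 1.06 in KO, with overlap, and that of local background was 0.468 and 0.482 in WT and 0.530 and 0.668 in KO, without overlap.

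The other 2 regions of the windows with a peak in all 4 libraries both lie near Dynlt1a. The region from 6294295 to 6295246, over an exon of Tmem181a, had a height of 4.53 and 4.96 times the genome background in WT and 4.15 and 3.87 times in KO. It was the 1 region of the windows in which both WT libraries lay above both KO libraries, with a ratio of 0.845. The region from 6320818 to 6322037, in an intron of Gm26848, had 10.6 and 11.0 times in WT and 13.1 and 10.6 times in KO, and the groups overlapped.

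Of these 6 regions, then, 1 had heights higher in both KO libraries (over all 48089 regions the share was 6.21%) and 1 had heights higher in both WT libraries (25.1% over all). Division by the median height of each library, in place of its genome background, gave 2 regions higher in KO (12.8% over all) and 1 higher in WT (13.3% over all), the added one being the region from 6320818 to 6322037. Local background was higher in both KO libraries in 3 of the 6, against 8.39% over all regions, and the other 3 overlapped. Because the members were selected on this contrast, these shares are set side by side with no inference. The median over the 6 regions of the KO against WT ratio was 1.14 for height, 1.14 for local background and 0.959 for fold.

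The remaining 8 regions of the windows lacked a peak in at least 1 library. The region from 6428901 to 6429350, just upstream of the Dynlt1b promoter peak, had no peak in WT replicate 1, a height of 5.40 times the genome background in WT replicate 2, and 8.13 and 9.24 times in KO replicates 1 and 2. The region from 6452332 to 6453461, in an exon of Tmem181b-ps, held 5.40, 7.30 and 5.07 in the same libraries. The region from 6624059 to 6625311, in an exon of Tmem181c-ps, held 3.65, 4.48 and 4.47 in those libraries.

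These 3 regions shared 1 gap, in WT replicate 1. That library was the shallowest and called no peak under 13 read ends, but whether depth accounts for the gap was not tested. No region of the windows had a peak in both KO libraries and neither WT library. In the block as a whole 3 regions did, all of them outside the windows, and no region showed the reverse. Their heights in KO were low, at 3.65 to 5.21 times the genome background. The share of such regions over the whole genome was not taken, so this count is not read as a trait of the block. The region from 6650747 to 6651479, in an intron of Dynlt1f, had a peak in WT replicate 2 and KO replicate 1 only, at 6.13 and 5.14 times the genome background. The last 4 regions had a peak in 1 library each, WT replicate 1 for 1, KO replicate 1 for 1 and KO replicate 2 for 2 of them.

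**Figure D2:**
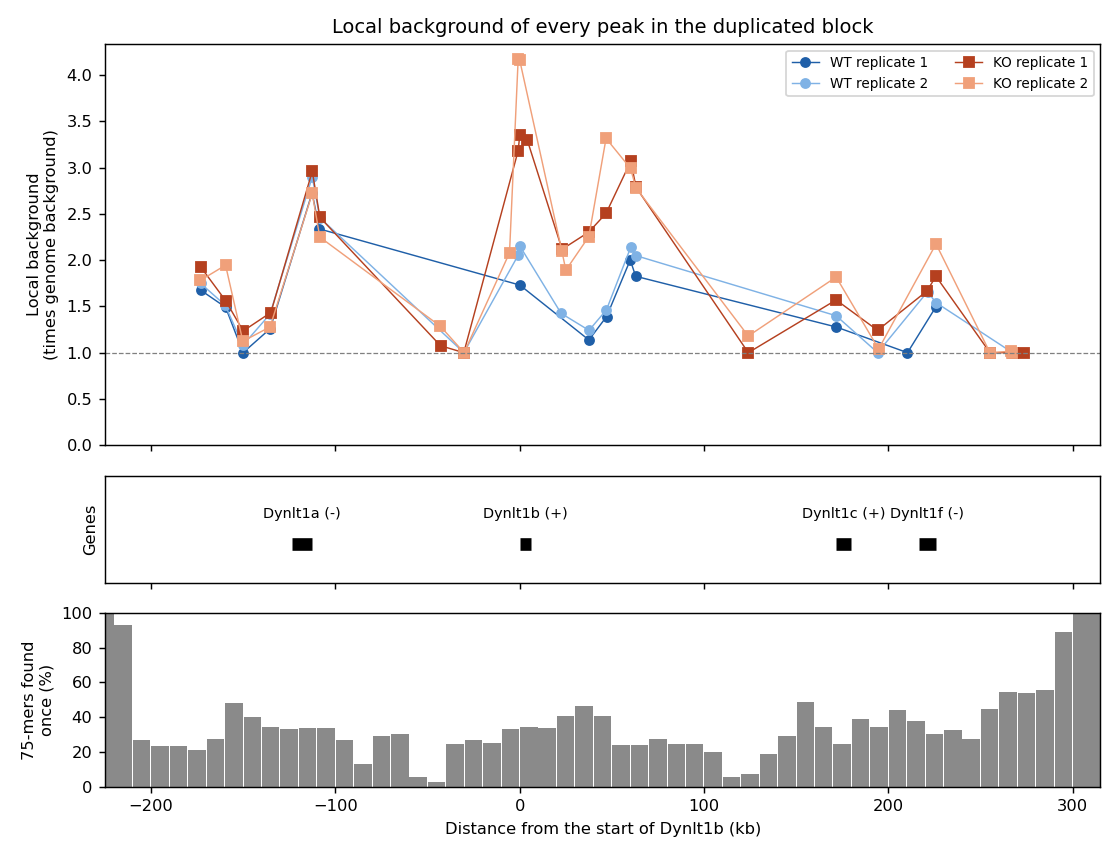
Local background of every peak in the duplicated block by distance from the start of Dynlt1b (top, in multiples of the genome background of each library, lines join peaks of 1 library), gene bodies with strand (middle) and the share of 75-base strings found once in the genome per 10-kb bin (bottom). KO libraries stand above WT libraries from the Dynlt1b promoter to 63 kb beyond it, while the 4 libraries lie together around Dynlt1a.

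The raised background at Dynlt1b extended to regions past its window. Between 6429649 and 6493368 lay 5 consecutive regions with a peak in all 4 libraries in which both KO libraries exceeded both WT libraries in local background, by 1.4 times or more on average. Over all 48089 regions this was met by 0.42%. The median of the local background over all peaks of this 63.7-kb stretch was 1.76 and 1.76 times the genome background in WT replicates 1 and 2 and 2.79 and 2.78 times in KO replicates 1 and 2. Each WT library had 6 peaks there and each KO library 7, so the medians are not over the same peaks. The 1.4 was chosen after the values were seen.

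Outside the stretch the ratios were smaller. Before it, the block held 6 regions with a peak in all 4 libraries. Local background was higher in both KO libraries in the first 3 of them, inside Tmem181a, with ratios of 1.08, 1.17 and 1.13, and overlapped in the other 3, near Dynlt1a, with ratios of 1.01, 1.01 and 0.982. After it, the only such regions were the Dynlt1c and Dynlt1f promoters, both higher in KO with the ratios of 1.27 and 1.32 given above. A raised background was therefore not limited to the stretch. Medians over all peaks of the block before the stretch were 1.58 and 1.63 times in WT and 1.56 and 1.86 times in KO. After the stretch they were 1.28 and 1.40 times in WT and 1.12 and 1.04 times in KO. The libraries had different peaks in these flanks, 3 to 8 per library after the stretch, so these medians do not compare the same sites.

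The region from 6466812 to 6468234, over the 5′ end of Tmem181b-ps, had a local background of 1.14 and 1.24 times the genome background in WT against 2.30 and 2.26 times in KO, and a height of 4.98 and 6.28 times against 10.3 and 7.30 times. The region from 6476553 to 6477428, in an intron of Gm26848, had a local background of 1.39 and 1.46 times against 2.51 and 3.32 times, and a height of 7.02 and 6.13 times against 10.6 and 14.6 times. Both quantities separated the groups in both regions. Their summits and that of the next region lie 37, 47 and 60 kb from the start of Dynlt1b, so the 10-kb windows of these regions and of the Dynlt1b promoter share few bases.

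These 2 regions have near-identical counterparts on the far side of Dynlt1a, inside the gene Tmem181a. Over the 300 bases at the summit of the region at 47 kb, its counterpart at 6269957 to 6271037 differed by 3 edits. Within a library, the height at 47 kb was 0.838 and 0.840 times that of the counterpart in WT replicates 1 and 2 and 1.21 and 1.66 times in KO replicates 1 and 2. For local background the ratio was 0.933 and 0.967 in WT and 1.60 and 1.70 in KO. For the region at 37 kb and its counterpart at 6279271 to 6280353, the ratio of heights was 0.957 and 1.26 in WT and 2.07 and 1.53 in KO, and that of local background was 1.14 and 1.15 in WT and 1.87 and 2.01 in KO. In both pairs the copy beside Dynlt1b gained over the other copy in KO. The region at 37 kb had another counterpart, at 6640304 to 6640582, 6 edits away, with a peak in WT replicate 1 only. Heights summed over all its copies with a peak were 14.3 and 11.2 times in WT and 15.3 and 12.1 times in KO, with overlap. A copy without a peak added nothing to a sum, and the counterpart at 6640304 to 6640582 added 4.08 times in WT replicate 1. The overlap rests on that addition. At 47 kb the sums over the pair were 15.4 and 13.4 times in WT and 19.4 and 23.4 times in KO, without overlap.

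The region at 60 kb (6489663 to 6490745) showed the 2 quantities apart. Its height was 12.7 and 11.8 times the genome background in WT and 14.8 and 12.2 times in KO, with overlap. Its local background was 2.00 and 2.14 times in WT and 3.07 and 2.99 times in KO, a ratio of 1.46. The 300 bases at the summit of the region from 6320818 to 6322037, beside Dynlt1a, occur here with 0 edits. A single read lying wholly within them cannot be placed by its own sequence. The methods describe paired-end reads, and whether mates outside the stretch placed them was not tested. Counted from the summit of the region at 60 kb instead, the 2 regions differed by 3 edits. The ratio of their heights within a library was 1.19 and 1.08 in WT and 1.13 and 1.15 in KO. The ratio of their local backgrounds was 0.857 and 0.869 in WT and 1.25 and 1.33 in KO. The ratio of heights thus overlapped between the groups, and that of the surrounding 10 kb, in which 25.05% of the 75-base strings are found once, did not. Against its other counterpart, the region from 6256475 to 6257726, from which it differed by 5 edits in 300 bases, neither ratio overlapped. The ratio of heights was 1.17 and 1.09 in WT and 1.33 and 1.41 in KO, and that of local backgrounds was 1.19 and 1.22 in WT and 1.59 and 1.68 in KO. Heights summed over the 3 regions were 34.2 and 33.6 times in WT and 39.0 and 31.4 times in KO, with overlap.

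Last in the stretch, the region from 6492658 to 6493368, over an exon of Gm26848, had a height of 5.66 and 4.96 times the genome background in WT and 9.29 and 8.49 times in KO. Its local background was 1.83 and 2.05 times in WT and 2.79 and 2.78 times in KO. Its window overlaps that of the region at 60 kb, so their backgrounds are not separate measurements. It was the 1 region of the stretch in which the deposited fold was higher in both KO libraries, at 2.87 and 2.33 in WT against 3.20 and 2.95 in KO. The 300 bases at its summit matched every member promoter region with 6 or 7 edits. Its values may therefore hold read ends of those promoters, and theirs may hold read ends of this region. Heights summed over these 5 regions were 47.6 and 38.1 times in WT and 52.3 and 63.2 times in KO, without overlap. The members were selected on this contrast, so the sums are a description.

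**Figure D3:**
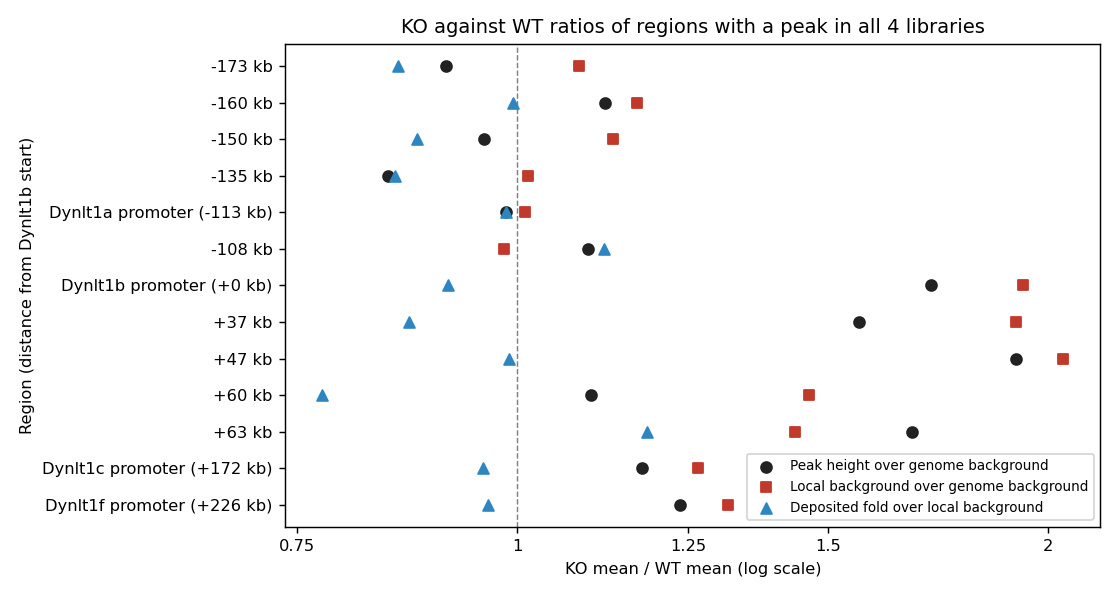
KO mean over WT mean (log scale) for the 13 regions of the block with a peak in all 4 libraries, in order along the chromosome: height over genome background (circles), local background over genome background (squares) and deposited fold (triangles). From the Dynlt1b promoter to 63 kb the ratio of local background lies between 1.44 and 2.04, while the ratio of fold lies between 0.775 and 1.18.

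Over the 13 regions of the block, the median KO against WT ratio was 1.12 for height, 1.27 for local background and 0.956 for fold. Local background was higher in both KO libraries in 10 regions (8.39% over all 48089 regions) and in both WT libraries in 0 (17.8% over all). Fold was higher in both KO libraries in 2 regions (8.98% over all) and in both WT libraries in 4 (24.8% over all).

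The height and the local background were compared with regions elsewhere whose height was raised to a like degree. Outside the block and outside a stretch of chromosome 15 from 61983299 to 63652968 around Myc, 164 regions had heights higher in both KO libraries and by at least 1.5 times on average. Their median ratio of height was 1.63, their median ratio of local background was 1.20 (quartiles 1.07 and 1.40) and their median ratio of fold was 1.39. In some of the 164 the local background sat at its floor in both groups, which holds the ratio at 1.0 and hides any change below the floor. The 4 regions of the block that met the same rule had medians of 1.69, 1.93 and 0.951. A local background ratio of at least 1.4 without overlap was found in all 4 of these and in 33 of the 164 (20.1%). A ratio of 1.9 or more was found in 3 of these 4 and in 4 of the 164. The cut of 1.9 lies just under the lowest ratio of those 3, so their count follows from its choice. In the chromosome 15 stretch, 16 such regions had a median ratio of 2.54 for height, 5.63 for local background and 0.576 for fold. The rule and its cuts were set after the values were seen. The block was selected on the same contrast, so this is a description with no test.

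**Figure D4:**
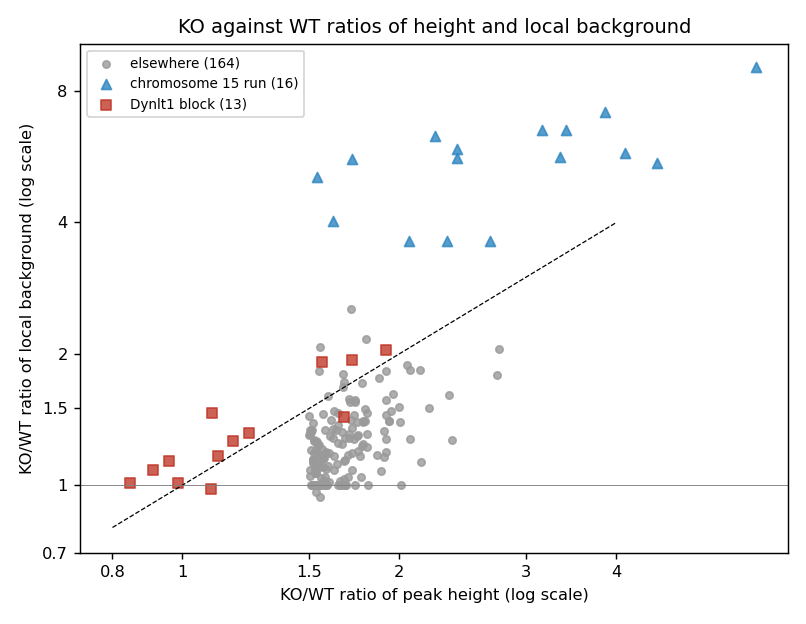
KO against WT ratio of local background against that of peak height (both log scales) for the 13 regions of the block with a peak in all 4 libraries (squares), for regions elsewhere with heights raised in both KO libraries by at least 1.5 times (164 circles) and for such regions of the chromosome 15 stretch (16 triangles). The dashed line marks equal ratios. Most circles lie below it, and 3 of the 4 block regions raised by at least 1.5 times lie above it.

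Outside the 4 windows, the question whether heights near the cluster differed between KO and WT could be put to limma, fitted on log2 height over all 48089 regions. Of 63 regions within 1 Mb of the cluster and outside the windows, 1 passed the threshold, the region at 47 kb described above. Its log2 difference of KO minus WT was 1.02 (SE 0.23, adjusted p = 0.0371 in limma, 2 libraries per group). Over the whole genome 0.0374% of regions were called higher in KO. The region lies in the same block and the same libraries as the members and is no independent support for their values.

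That call was not firm. It was lost in limma without WT replicate 2 (adjusted p = 0.230), without KO replicate 1 (adjusted p = 0.0897) and without KO replicate 2 (adjusted p = 1.00). It was kept without WT replicate 1 (adjusted p = 0.00962). With the replicate number as a block the adjusted p in limma was 1.00. The log2 difference lay between 0.73 and 1.25 in all these fits. The regions at 37 and 63 kb had log2 differences of 0.73 (SE 0.26, adjusted p = 1.00, limma) and 0.84 (SE 0.26, adjusted p = 0.543, limma).

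No region beyond the block was called. Of the 56 regions within 1 Mb that lie outside the block, 0 passed in limma, 2 had an unadjusted p below 0.05, both lower in KO, and the median log2 difference was -0.013. Their ratio of local background had a median of 0.963 and ran from 0.760 to 1.25, against a median of 1.44 and a range of 1.08 to 2.04 in the 7 regions inside the block and outside the windows.

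The other subunits of the motor were taken from a list of 48 genes of dynein, its activator dynactin and their regulators and cargo adaptors. All 48 had a promoter peak in every library, within 1000 bp of a transcript start. In the limma fit over 13372 promoters, 0 of the 48 passed, where 0.015% of all promoters did. Of the list, 2 genes, Tcte3 and Capza2, had an unadjusted p below 0.05 in limma, close to the 3.9% of all promoters that did. The median log2 difference of KO minus WT was -0.013, with 23 genes above 0 and 25 below, against -0.0049 over all promoters. Division by the genome background, in place of centring, moved the median of all promoters to -0.11 and that of the list to -0.12, with 5 genes above 0 and 43 below.

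The 5 other Tctex-type light chain genes on the list all had log2 differences above 0, between 0.05 and 0.36, and none passed, and after division by the genome background 3 of the 5 were above 0. Tcte3, on the list as a Tctex-type gene, had a promoter height of 16.3 and 15.9 times the genome background in WT and 17.9 and 19.8 times in KO. Its log2 difference was 0.33 (SE 0.10, adjusted p = 0.999, limma). Dynlt3, the paralog of the cluster that also serves as a dynein light chain, had 9.97 and 7.45 times in WT and 8.13 and 11.8 times in KO, with a log2 difference of 0.29 (SE 0.20). Tctex1d4 had 6.57 and 10.5 times in WT and 10.3 and 9.54 times in KO, with a log2 difference of 0.36 (SE 0.24) that turned to -0.094 without WT replicate 1.

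Among the other groups, Hap1, which encodes a huntingtin-associated adaptor, had the largest difference, with 9.74 and 8.18 times in WT and 9.79 and 11.3 times in KO, and a log2 difference of 0.35 (SE 0.17). The heavy chain gene Dync1h1 had 22.2 and 15.2 times in WT and 13.9 and 16.8 times in KO, with a log2 difference of -0.15 (SE 0.12). The intermediate chain genes Dync1i1 and Dync1i2, whose products bind the Tctex-type light chains, had log2 differences of -0.22 (SE 0.11) and 0.02 (SE 0.11). The 12 dynactin genes ranged from -0.22 at Capza2, an actin-capping subunit with 26.3 and 21.6 times in WT and 18.8 and 19.2 times in KO, to 0.07 at Dctn4.

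The promoters whose heights were most like those of Dynlt1b over the 4 libraries were sought among 13355 others, by the Euclidean distance of the log2 heights over genome background after each promoter was centred on its mean. The nearest 5 were Irf7, Socs3, Cd59a, Greb1 and Swap70, at distances of 0.135 to 0.211 over 4 libraries. Irf7, an interferon regulatory factor, had heights of 4.98 and 4.67 times the genome background in WT and 7.30 and 9.98 times in KO. Socs3, a feedback inhibitor of cytokine signaling, had 7.48 and 7.45 times in WT and 10.6 and 14.3 times in KO.

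Local background differed among these promoters. At Irf7 it was 1.51 and 1.46 times the genome background in WT and 1.85 and 2.60 times in KO. At Socs3 it was 1.81 and 2.23 times in WT and 2.67 and 4.10 times in KO. At Cd59a, Greb1 and Swap70 it was at its floor of 1.00 in both WT libraries. In the KO libraries it lay between 1.00 and 1.36 there. The likeness rests on 4 values per promoter and is given as a description.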

How the data were processed

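The authors deposited 1 ATAC-seq peak list per tumor (2 WT, 2 KO). Per the labels, MACS2, HOMER and mm10 were used, without versions. The methods of the study instead describe Bowtie2, with up to 5 alignments reported per read, and Genrich. The columns follow MACS2 arithmetic and were read as such. The sources used here do not give how MACS2 was fed reads with several placements or whether read ends were moved for the transposase. For every peak the authors deposited a ratio (fold over local background), a −log10 p-value, a −log10 q-value and a score, the last of which was not used.

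Height h and local background b were solved from fold = (h + 1)/(b + 1) and the Poisson p-value. For all 331481 peaks a whole height gave the −log10 p to within 0.001. Local backgrounds above the genome level were whole multiples of 0.02, the share of 1 read end extended to 200 bp over 10 kb. No read totals are given in the files, so the genome background (the lowest background of a library) served as relative depth, and intervals for counting error were not computed.

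The members and lists were chosen with earlier results of these data known. limma 3.58.1 (R 4.3.3), with heights centred on the library median, a mean-variance trend and Benjamini-Hochberg adjustment at 0.05, was run over all regions or promoters with a peak in all 4 libraries. A region without a peak in some library has no height and could not enter. Functions were tested on simulated data. Named genes were the 4 members, genes in their windows with a peak, list genes past the threshold or among the 4 largest differences, and the 5 promoters most like Dynlt1b. Dync1h1, Dync1i1, Dync1i2, Capza2 and Dctn4 were added after their values were seen. Tumors of the same number are tied by nothing in the labels. The p-values take tumors as units, 2 per group. In limma the spread between tumors of a group is drawn toward a trend shared by all regions or promoters. The SE of a region therefore rests mainly on that trend and little on the spread of its own values. For a single value, 2 against 2 libraries cannot give an exact two-sided permutation p below 0.333.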

Additional observations from a re-analysis of the deposited data

How the results depend on the processing

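At Dynlt1b, Dynlt1c and Dynlt1f the KO against WT ratio of local background stayed above 1 under each of 6 alternatives, from 1.73 to 2.17 at Dynlt1b. The ratio of height at Dynlt1b ran from 1.53 to 1.90. At Dynlt1c and Dynlt1f the height ratio ran from 1.01 to 1.42 and from 0.970 to 1.64, and at Dynlt1a it was 1.05 after division by the median height of the library. In the windows as a whole, the ratio of the group means of the library medians was 1.26 for local background and 1.06 for height. With a flank of 50 kb these were 1.37 and 1.24, and without 1 library they ran from 1.24 to 1.39 and from 0.948 to 1.40. The number of regions whose heights did not overlap, 2 of 6, was 1 of 5 with a flank of 5 kb or with a −log10 q of at least 5, 5 of 11 with a flank of 50 kb, and 3 to 6 without 1 library, WT replicate 1 giving the 6 (of 9 regions). Leaving out a library makes separation easier by construction.

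The count of 1 region within 1 Mb past the limma threshold was 0 with a −log10 q of at least 5, with genome background scaling and with no trend, and 0 to 1 without 1 library. With the replicate block it was 0. Deviations of same-numbered libraries correlated at -0.34 over regions, so crossed pairing was added after seeing the data, and it gave 2. The count of dynein and dynactin promoters was 0 in all of these fits, also with the replicate block, and at promoters of 500 and 2500 bp. Over all promoters, 2 were called, against 0 with no trend and 222 without KO replicate 1. Over all regions, 19 were called, against 7 to 70 without 1 library. Without 1 library the log2 difference of Tctex1d4 ran from -0.094 (without WT replicate 1) to 0.81. In fits without 1 library the lone library is assumed to vary like the other group. Where a value changed, the cause was not tested. Depth limits low peaks, most of all in WT replicate 1.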

Other observations

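The stretch at Dynlt1b was 1 of 8 runs in the genome of at least 3 consecutive regions in which local background was higher in both KO libraries and by at least 1.4 times on average. This rule was chosen after seeing the data. The longest run had 17 regions, on chromosome 15 from 61983299 to 63652968 over Myc, with a median ratio of 5.62. Another had 3 regions on chromosome 17 from 34186971 to 34206177 over Psmb9, Tap1, Psmb8 and Tap2, which encode parts of the antigen processing machinery, with a median ratio of 1.62 for local background and 1.16 for height. A run of 4 regions lay over Irf1 on chromosome 11, with 1.54 and 1.37.

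In the other direction there were 2 runs. The longer, of 10 regions on chromosome 14 from 69284165 to 69591811 over Slc25a37, Entpd4 and Entpd4b, had a median KO against WT ratio of 0.535 for local background and 0.572 for height. The other, of 5 regions on chromosome 13 from 119487593 to 119602486 over Tmem267, had 0.611 and 0.610. At the Dynlt1b stretch the same medians were 1.92 and 1.67.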
